A study of Bos taurus with 20 samples.

Results

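The genes described here encode the factors that start and extend translation and the enzymes that charge transfer RNAs. They are the protein-coding rows of the deposited table whose symbol begins with EIF or EEF and a digit, or is a 1-letter amino acid code followed by ARS, ARS1 or ARS2, or EPRS. The rule found 96 genes among 15542 rows, and 92 of the 96 passed the filter on low values, which asked for 10 reads in at least 2 libraries and left 10599 genes to be tested. The other 4, EIF4E3, AARS2, EARS2 and PARS2, had 0 to 9 reads in each library and are given no further value. All samples were bovine embryos at day 14 of development, when the conceptus elongates, recovered from the uterus by flushing. The 20 RNA-seq libraries fall into 4 groups, which are 6 fresh whole embryos, 5 samples of trophectoderm (TE, the outer epithelium that forms the embryonic part of the placenta) isolated from fresh embryos, 2 whole embryos that had been vitrified (cryopreserved by glass-like solidification), and 7 TE samples from vitrified embryos. The labels give no breed or sex, and they do not say at which age embryos were vitrified, nor which TE and whole-embryo libraries came from which embryo or pool, so the p-values measure the spread between these libraries only. Fresh TE libraries 1 and 2, and likewise 3 and 4, were far closer to each other than other pairs, and if each pair were 1 sample sequenced in duplicate, fresh TE would hold 3 samples in place of 5. With each pair averaged, limma called 64 of these genes higher and 6 lower in vitrified than in fresh TE, in place of 67 and 7.

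Translation starts when eIF2 brings the initiator methionyl-tRNA to the small ribosomal subunit, with eIF1, eIF1A and the many-subunit eIF3 on the same particle, and when eIF4E, eIF4G and the helicase eIF4A recruit the capped mRNA. The exchange factor eIF2B recharges eIF2 with GTP, 4 stress-activated kinases block that step by phosphorylating eIF2, and the 4E-binding proteins hold eIF4E away from eIF4G when mTOR signalling is low. During elongation eEF1A delivers aminoacyl-tRNAs, eEF1B reloads eEF1A with GTP, and eEF2 moves the ribosome along. Each amino acid has a cytosolic synthetase and most have a separate mitochondrial one, all encoded in the nucleus. The elongating ruminant conceptus is known for rapid growth of the trophectoderm and for heavy secretion of protein.

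Libraries held 6.006 to 14.53 M reads. Genes listed in the table took 33.8 to 40.3% of all reads in fresh TE and 57.5 to 63.9% in the 15 other libraries, so fresh TE stood apart as a group. Values were per M library reads (RPKM, reads per kb of gene span per M), and a smaller listed share lowers them for most genes together. Across all tested genes the median change between vitrified and fresh TE was 0.18 on the log2(RPKM + 1) scale, 0.06 when libraries were scaled by their listed-gene reads, and 0.01 when they were scaled by the median ratio over genes. Each gene was therefore tested on 4 scalings, the deposited one, these 2 and quantile normalization, and a change called under all 4 is named as such below. The 11 trophectoderm markers examined were above 0 in every library. Their summed level was 2565 to 3361 RPKM in fresh TE and 2545 to 3651 in vitrified TE. In whole embryos it was 1807 to 2582 when fresh and 2887 to 3389 after vitrification. On the deposited scale 2 of the 11 were called higher and 7 lower in fresh embryos than in fresh TE, beside 60% and 5.97% of all genes. In vitrified against fresh TE 5 were higher and 4 lower, beside 69% and 6.66%. Sums for markers of other embryonic layers are on the deposited scale. The summed level of 7 epiblast markers was 1.76 to 4.62 RPKM in fresh TE and 4.37 to 12.7 in fresh embryos. It was 5.92 to 10.3 in vitrified TE and 7.26 to 33.4 in vitrified embryos. Of these 7 markers 3 were called higher and 0 lower in vitrified than in fresh TE, a smaller share than the 69% of all genes. Under median-ratio scaling 2 were higher and 0 lower, beside 35.2% and 27.4% of all genes. Of 8 hypoblast markers 6 had a row, and their sum was 155 to 327 RPKM in fresh TE against 611 to 1303 in vitrified TE. It was 575 to 1043 in fresh embryos and 213 to 757 in vitrified embryos. All 6 were called higher in vitrified than in fresh TE under each of the 4 scalings. The 1 endometrial marker with a row stayed at or below 0.051 RPKM. Of 6 blood and immune markers 4 had a row, summing to 9.48 to 15.5 RPKM in fresh TE and 2.99 to 6.44 in the other groups. The sum does not stand for each marker, since CD74 was at 0 in all fresh TE libraries. Of the 3 tested, 2 were called higher and 1 lower in vitrified than in fresh TE, on the deposited scale and under median-ratio scaling. The part of these layers in the results below was not tested, and in such bulk samples fewer cells of a type and less RNA per cell cannot be told apart.

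Vitrified TE was compared with fresh TE, the contrast the design names. Of the 92 tested genes 67 were higher and 7 lower in vitrified TE (limma, adjusted p below 0.05), beside 69% of all tested genes higher and 6.66% lower (75.6% in either direction), so the share of these genes that rose was near that of the whole table. Under all 4 scalings 25 were higher and 7 lower, beside 25.4% and 6.66% of all genes. For 14 of the 92 genes (15.2%) the call turned from higher to lower with the scaling, near the 14% of all tested genes that did so, among them EEF1A1, EEF1G, EIF3E, EIF3I, EIF3K, EIF4G2 and QARS. The set as a whole took 0.813 to 0.940% of library reads in fresh TE and 1.14 to 1.59% in the other 15 libraries, whereas its share of the reads on listed genes was 1.98 to 2.51% over all 20 libraries, with fresh TE inside that range. Under median-ratio scaling 35.2% of all genes were higher and 27.4% lower. These shares of all genes, with 69% and 6.66% on the deposited scale, stand beside every count by role or list in this contrast, and a count near them is no result about its role. The cap-binding and helicase genes together took 707 to 798 reads per M library reads in fresh TE and 1759 to 2213 in vitrified TE, and per M listed-gene reads 1776 to 2189 and 3048 to 3817. The cytosolic synthetases took 558 to 690 and 1243 to 1506 per M library reads, and 1643 to 1760 and 2154 to 2563 per M listed-gene reads. Both sums were thus higher in vitrified TE on either denominator, but under listed-gene scaling 49.2% of all genes were higher and 15.7% lower. Under median-ratio and quantile scaling the median log2 change was 0.38 and 0.31 for the cap-binding and helicase genes. For the cytosolic synthetases it was 0.08 and 0.003. For 2 other roles the picture rests on the denominator. The elongation factors took 4109 to 4441 reads per M library reads in fresh TE and 3369 to 4329 in vitrified TE, which overlap, but 10250 to 12320 and 5838 to 7468 per M listed-gene reads. The mitochondrial synthetases took 132 to 176 and 179 to 209 per M library reads, higher in vitrified TE, but 384 to 448 and 309 to 350 per M listed-gene reads, lower there. In these sums EEF1A1 and EEF1B2, and IARS2, weigh most. The cap-binding and helicase sum speaks mainly for EIF4A1, EIF4G2 and EIF4H, with 44432, 25410 and 21985 reads over the vitrified TE libraries.

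**Figure D1:**
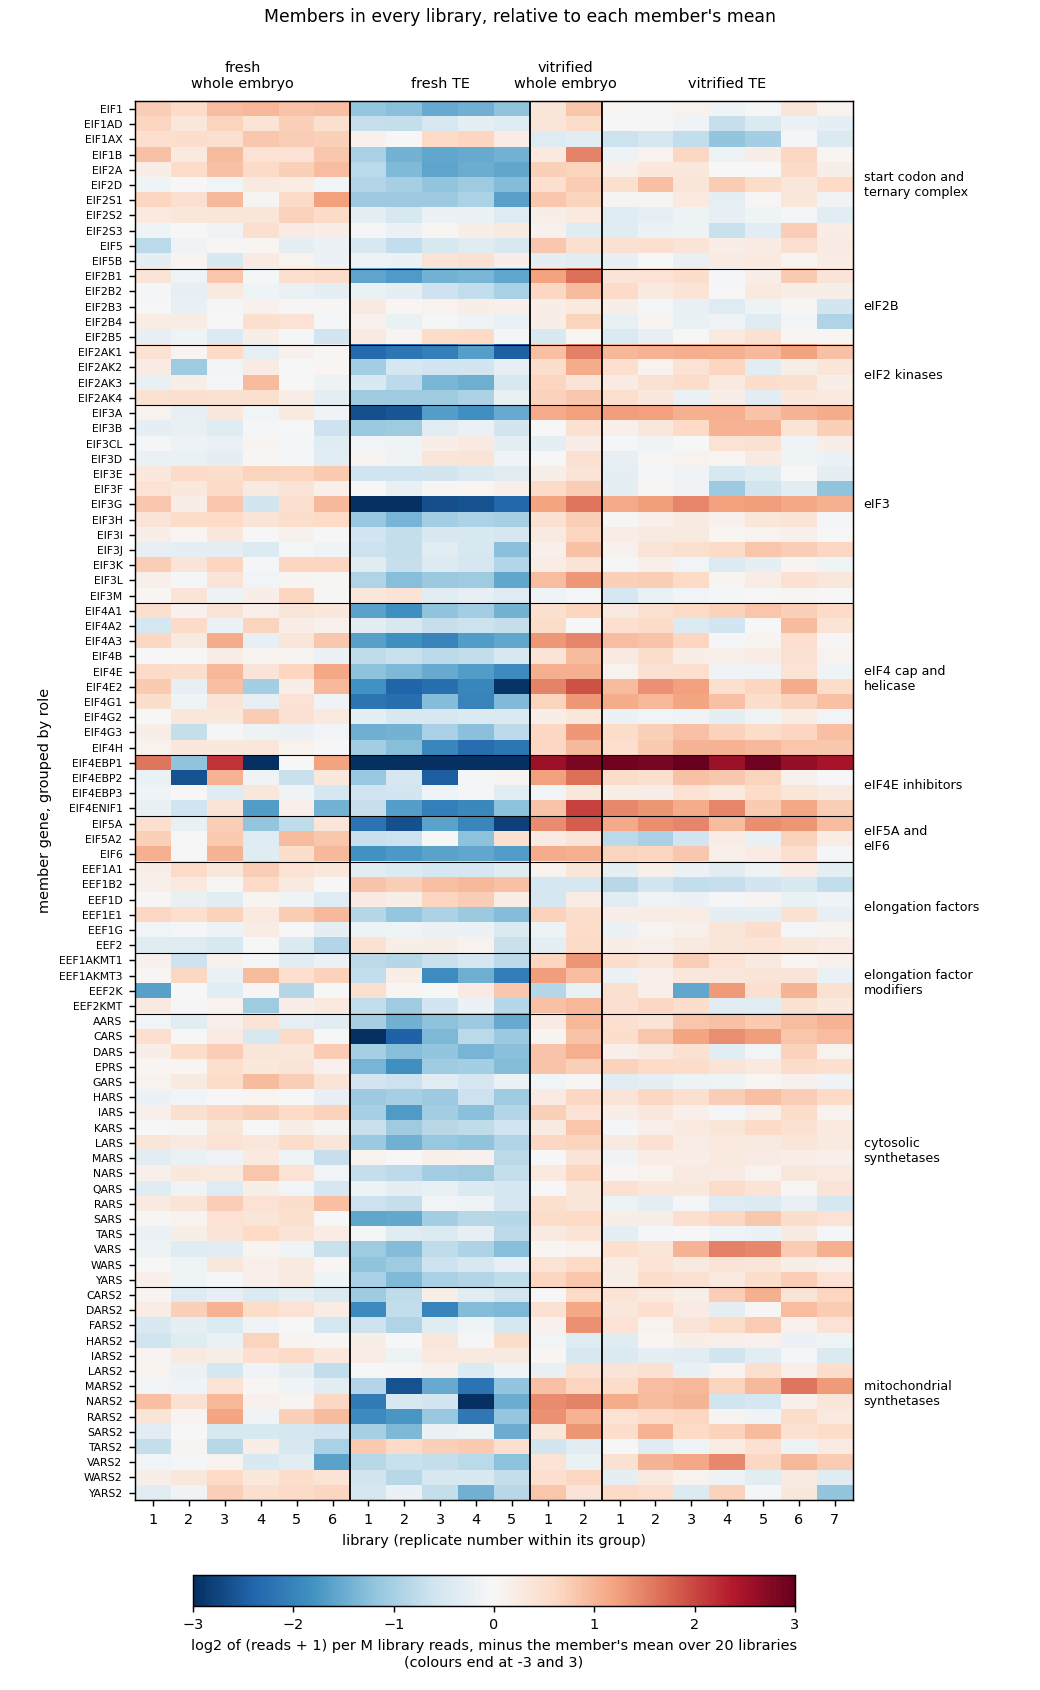
Heat map of the 92 tested genes (rows, grouped by role) in the 20 libraries (columns, grouped by sample type). Colour is log2 of (reads + 1) per M library reads minus the gene's mean over all libraries. The 5 fresh TE columns are blue for most rows, with EIF3G, EIF4EBP1, EIF5A and EIF4E2 among the deepest, but red for EEF1B2 and TARS2.

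**Figure D2:**
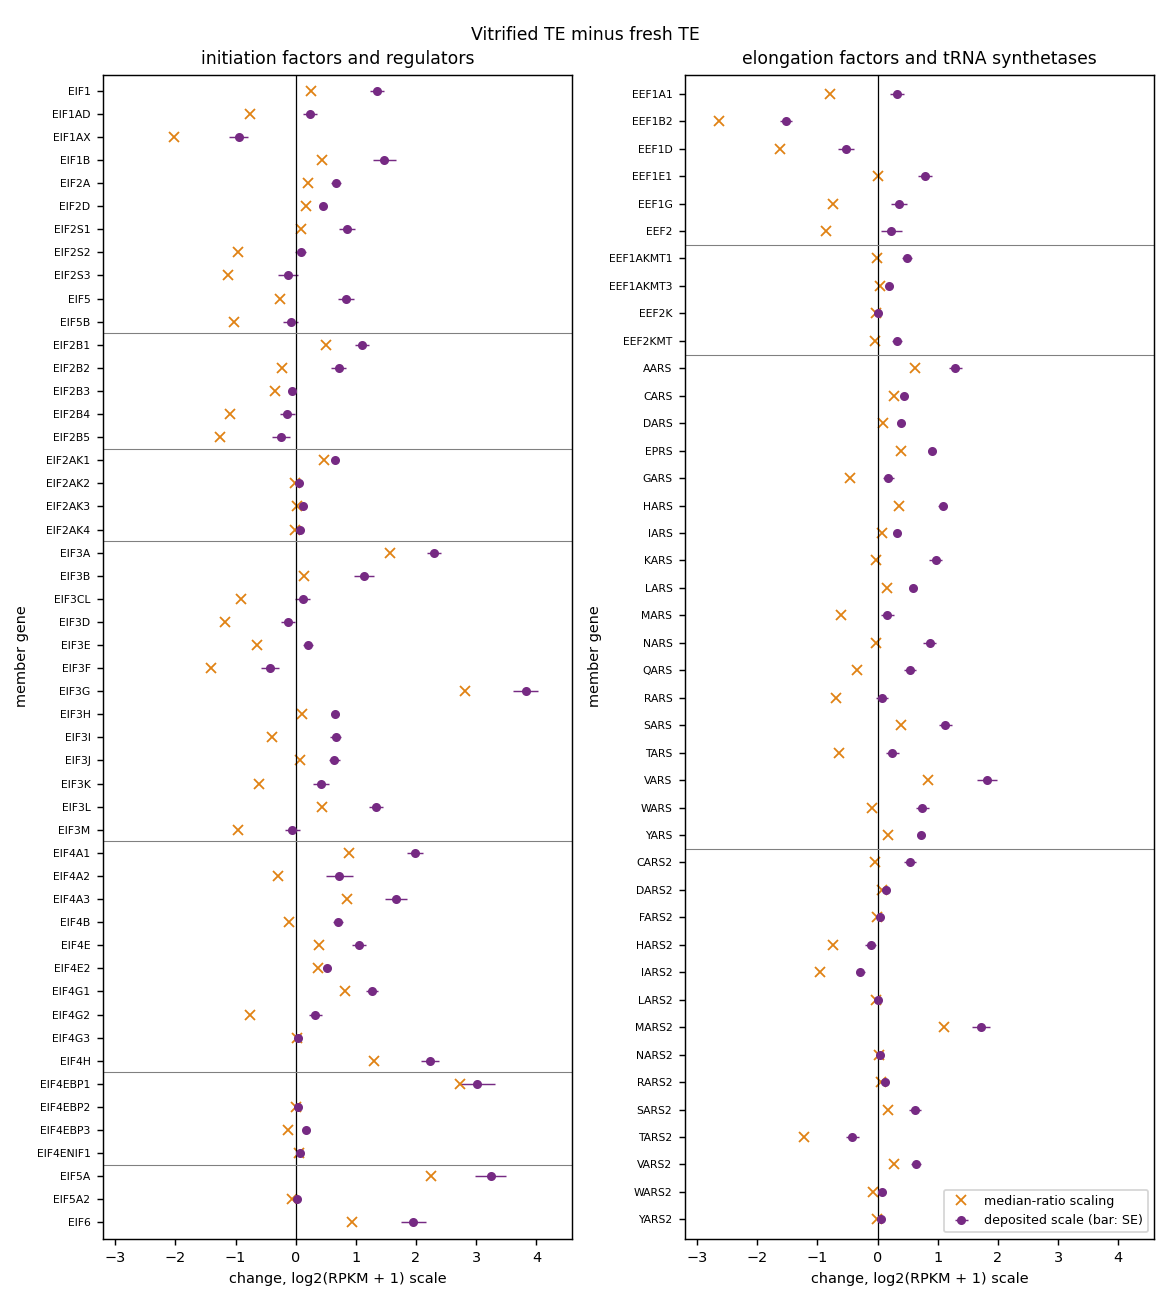
Change between vitrified and fresh TE on the log2(RPKM + 1) scale for each tested gene, on the deposited scale (points, bars are standard errors) and under median-ratio scaling (crosses). EIF3G, EIF4EBP1 and EIF5A lie farthest to the right on both scales, and EEF1B2 and EIF1AX farthest to the left.

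Among the factors that select the start codon, eIF1 and its near copy EIF1B rose in vitrified TE, and eIF1A, encoded by EIF1AX, fell. EIF1, the scanning factor that keeps the ribosome from stopping at wrong codons (chromosome 19, 42545777 to 42548335, UMD3.1, plus strand), stood at 40.6, 38.0, 31.6, 33.0 and 38.7 RPKM in the 5 fresh TE libraries. In the 7 vitrified TE libraries it ran from 82.6 to 116 RPKM with a median of 93.97, in fresh embryos from 135 to 181 with a median of 166, and it was 116 and 160 in the vitrified embryos. The fresh TE values did not overlap those of any other group. The mean was 2.59-fold higher in vitrified than in fresh TE, with a log2 change of 1.35 ± 0.11 (SE; limma adjusted p = 3.5e-09), and it stayed higher at 0.26 under median-ratio scaling. EIF1B was 7.79 to 11.6 RPKM in fresh TE and 20.6 to 35.5 in vitrified TE, a log2 change of 1.47 ± 0.19 (limma adjusted p = 1.4e-06).

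EIF1AX (chromosome X, 130307269 to 130317160, plus strand), whose product eIF1A binds beside eIF1 and opens the scanning conformation, went the other way. It was 35.5, 32.6, 49.2, 50.8 and 38.3 RPKM in fresh TE, and 14.3 to 31.2 with a median of 21.0 in vitrified TE. In whole embryos it was 45.3 to 56.8 RPKM with a median of 50.04 when fresh, and 24.9 and 25.8 after vitrification. Both fresh groups lay above both vitrified groups with no overlap. The change was -0.94 ± 0.16 in TE (limma adjusted p = 2.9e-05) and -0.96 ± 0.22 in embryos (limma adjusted p = 0.0032), and the call held under all 4 scalings in each. The difference between the 2 effects was -0.01 ± 0.27 (limma adjusted p = 0.98) on the deposited scale, and 0.76 under median-ratio scaling (limma adjusted p = 0.036). Within each library the ratio of EIF1AX to EIF1 was 0.86 to 1.56 in fresh TE, 0.17 to 0.27 in vitrified TE, 0.26 to 0.35 in fresh embryos and 0.16 and 0.22 in vitrified embryos. This and the other within-library ratios below were chosen after the values were seen and are descriptions.

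Of the 3 subunits of eIF2, EIF2S1 passed the test in TE. EIF2S1, the alpha subunit that the stress kinases phosphorylate, was 1.51, 1.51, 1.51, 1.66 and 1.03 RPKM in fresh TE against 2.63 to 4.05 with a median of 3.42 in vitrified TE, with no overlap. Its log2 change was 0.85 ± 0.13 (limma adjusted p = 1.3e-05) on the deposited scale and 0.09 under median-ratio scaling, so its call rests on the scaling. EIF2S2, the beta subunit, was 12.7 RPKM in fresh and 13.5 in vitrified TE, and EIF2S3, the GTP-binding gamma subunit, was 7.85 and 7.32, and neither passed the test on the deposited scale. Of the 11 genes in this role 6 rose, 1 fell and 4 did not pass, and under median-ratio scaling 4 were higher and 5 lower. EIF5, the GTPase-activating protein of eIF2, was 31.5 RPKM in fresh and 57.0 in vitrified TE on the deposited scale, and -0.26 on the log2 scale under median-ratio scaling. In whole embryos EIF5 was higher after vitrification, at 70.3 against 39.4 RPKM (0.84 ± 0.18, limma adjusted p = 0.002), but under median-ratio scaling the change was 0.51 and did not pass (limma adjusted p = 0.053).

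The 5 subunits of eIF2B, the exchange factor, gave 2 higher calls, 1 lower and 2 that did not pass. EIF2B1, a regulatory subunit (chromosome 17, 54297406 to 54308319, plus strand), was 0.653, 0.595, 0.735, 0.756 and 0.657 RPKM in fresh TE. It was 1.92 to 3.40 RPKM in vitrified TE with a median of 2.60, 1.81 to 3.50 in fresh embryos with a median of 2.71, and 4.55 and 6.23 in vitrified embryos. Fresh TE lay below all other groups, and the vitrified embryos above all others. EIF2B1 was 3.85-fold higher in vitrified than in fresh TE (1.10 ± 0.12, limma adjusted p = 1.1e-07), 2.08-fold higher in vitrified than in fresh embryos (0.84 ± 0.16, limma adjusted p = 0.00093), and 2.07-fold higher in vitrified embryos than in vitrified TE (0.82 ± 0.16, limma adjusted p = 0.0042), each under all 4 scalings. The last call was lost without vitrified embryo 2, at a log2 change of 0.63. EIF2B3, a catalytic-side subunit, was slightly lower in vitrified TE, at 0.232 ± 0.040 RPKM (SD, n = 7) against 0.287 ± 0.016 (SD, n = 5), with overlapping values (limma adjusted p = 0.028, and up to 0.085 over the alternatives). EIF2B5, the catalytic subunit, was 10.6 RPKM in fresh TE and 8.88 in vitrified TE and did not pass. The ratio of EIF2B1 to EIF2B5 was 0.06 to 0.08 in fresh TE and 0.18 to 0.41 in vitrified TE.

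All 4 eIF2 kinases were called higher in vitrified TE on the deposited scale, and EIF2AK1 was called higher under all 4. EIF2AK1 encodes HRI, the kinase that answers to haem shortage and mitochondrial stress, and its span (chromosome 25, 38584315 to 38611210, minus strand) holds the gene ANKRD61 on the other strand. It had 10 to 20 reads in each fresh TE library, or 0.0602, 0.0681, 0.0758, 0.102 and 0.0556 RPKM. It reached 0.608 to 0.774 RPKM in vitrified TE with a median of 0.688, 0.269 to 0.507 in fresh embryos with a median of 0.355, and 0.626 and 0.947 in vitrified embryos. No value of a vitrified group overlapped its fresh counterpart. The mean was 9.47-fold higher in vitrified TE (0.65 ± 0.05, limma adjusted p = 5.2e-10) and 2.07-fold higher in vitrified embryos (0.37 ± 0.06, limma adjusted p = 0.00043). EIF2AK2, the double-stranded RNA sensor PKR, EIF2AK3, the endoplasmic reticulum sensor PERK, and EIF2AK4, the amino acid sensor GCN2, were between 0.0388 and 0.0626 RPKM in fresh TE and between 0.0745 and 0.152 in vitrified TE. Of the 4 kinases 2 were called higher in TE under listed-gene scaling, and EIF2AK1 alone under median-ratio scaling. Under quantile normalization EIF2AK2, EIF2AK3 and EIF2AK4 stood at -0.06, -0.04 and -0.06 on the log2 scale, and 2 of them were called lower.

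The 13 genes of eIF3, the scaffold that joins mRNA and small subunit, ranged from -0.43 to 3.82 in their log2 change in TE. EIF3G, the RNA-binding subunit (chromosome 7, 15897380 to 15902005, minus strand), was 4.20, 4.54, 6.47, 6.69 and 7.88 RPKM in fresh TE. It was 85.3 to 112 RPKM in vitrified TE with a median of 96.2, 27.7 to 79.5 in fresh embryos with a median of 63.8, and 92.3 and 124 in vitrified embryos. Fresh TE lay far below the other groups, and both vitrified groups lay above the fresh embryos. The means of vitrified and fresh TE, 95.6 ± 8.66 (SD, n = 7) and 5.96 ± 1.55 RPKM (SD, n = 5), differed 16.05-fold (3.82 ± 0.21, limma adjusted p = 2e-11), and 7.45-fold under median-ratio scaling. EIF3A, the largest subunit and the platform for the rest, was 0.695, 0.726, 1.37, 1.21 and 1.51 RPKM in fresh TE and 7.78 to 10.3 with a median of 9.22 in vitrified TE. Its mean rose 8.37-fold (2.30 ± 0.11, limma adjusted p = 6.4e-12). EIF3L, a subunit of the outer octamer, rose 3.11-fold (1.34 ± 0.12, limma adjusted p = 8.8e-09), from 2.03 to 3.18 RPKM in fresh TE to 6.38 to 9.96 in vitrified TE.

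EIF3F was lower, and 3 other subunits did not pass. EIF3F was 6.67, 5.69, 6.80, 6.93 and 7.39 RPKM in fresh TE and 2.86 to 6.92 with a median of 5.28 in vitrified TE. The groups overlapped, and the lower call (-0.43 ± 0.15, limma adjusted p = 0.015) held under all 4 scalings but not with the replicate number as a block, where limma's adjusted p was 0.054. EIF3D, which binds certain caps itself, was 13.2 RPKM in fresh and 11.97 in vitrified TE, EIF3M 3.73 and 3.49, and EIF3CL 9.07 and 9.93, and none of the 3 passed. EIF3CL is a near-identical copy of EIF3C, so reads of the 2 may have been shared or lost. In all, 9 of the 13 rose and 1 fell on the deposited scale, and 3 were higher and 7 lower under median-ratio scaling. The ratio of EIF3G to EIF3F, 2 subunits of the same complex, was 0.63 to 1.07 in fresh TE, 3.45 to 10.8 in fresh embryos, 9.37 and 11.2 in vitrified embryos and 14.0 to 31.2 in vitrified TE. The ratio of EIF3A to EIF3D was 0.06 to 0.14 in fresh TE and 0.54 to 1.02 in vitrified TE. Since both genes of a ratio come from 1 library, library scaling cancels in it.

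**Figure D3:**
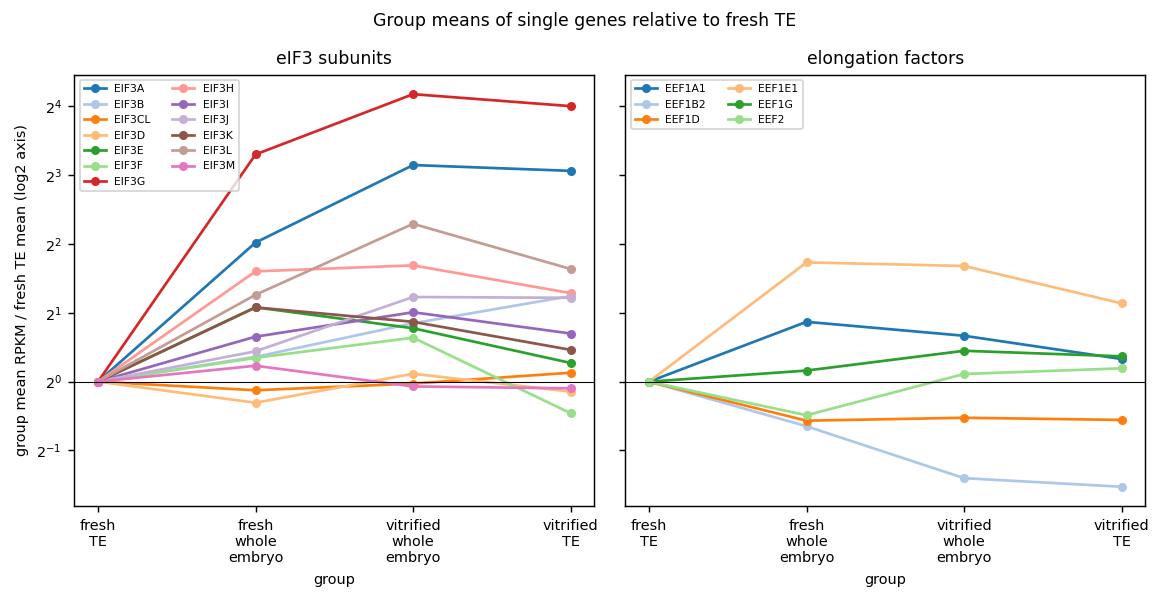
Group mean RPKM of each gene divided by its own mean in fresh TE (log2 axis), for the 13 eIF3 genes and the 6 elongation factor genes, with lines joining the means of 1 gene. EIF3G and EIF3A climb far above the other subunits, and EEF1B2 and EEF1D stay below 1 in all 3 other groups.

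All 10 tested genes grouped as eIF4 cap-binding and helicase genes rose in vitrified TE on the deposited scale, and 6 did so under all 4 scalings. Not all of them act in the cap-binding complex, as described below for EIF4A3, EIF4E2 and EIF4G2. EIF4A1, the main helicase (chromosome 19, 27915413 to 27921422, plus strand), was 26.4, 22.2, 34.9, 38.6 and 30.1 RPKM in fresh TE. It was 96.4 to 143 RPKM in vitrified TE with a median of 122, 87.7 to 112 in fresh embryos, and 111 and 126 in vitrified embryos. Fresh TE alone was low, and the mean of vitrified TE was 4.003-fold higher (1.98 ± 0.13, limma adjusted p = 1.6e-10), or 1.87-fold under median-ratio scaling. Its paralogue EIF4A2 was 7.85 to 10.2 RPKM in fresh TE and 8.66 to 25.0 in vitrified TE, overlapping, with a change of 0.73 ± 0.23 (limma adjusted p = 0.0078) that turned to -0.30 under median-ratio scaling. EIF4A1 and EIF4A2 host small nucleolar RNAs in their introns. Short small nucleolar RNA rows also lie within EIF4H and EIF5 on the same strand. Whether reads of these RNAs were counted for their host genes is not given in the sources used. EIF4A3, the helicase of the exon junction complex, rose 4.66-fold (1.67 ± 0.18, limma adjusted p = 1.3e-07), from 1.35 to 1.84 RPKM in fresh TE to 5.30 to 10.3.

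EIF4H, which stimulates the helicase, was 4.597, 3.87, 2.44, 1.94 and 2.09 RPKM in fresh TE and 13.4 to 19.6 with a median of 16.8 in vitrified TE, a 5.75-fold difference of means (2.23 ± 0.15, limma adjusted p = 2.3e-10). EIF4G1, the scaffold of the complex, was 0.250, 0.238, 0.473, 0.291 and 0.470 RPKM in fresh TE and 1.73 to 2.68 with a median of 2.20 in vitrified TE, 6.495-fold higher (1.27 ± 0.10, limma adjusted p = 2.8e-09). EIF4E, the cap-binding protein, was 1.11, 1.02, 0.922, 0.817 and 0.698 RPKM in fresh TE and 2.44 to 3.73 with a median of 2.80 in vitrified TE, 3.28-fold higher (1.05 ± 0.12, limma adjusted p = 2e-07). None of the 3 overlapped between the TE groups. EIF4E2, a cap-binding protein that represses translation, had 6 to 14 reads per fresh TE library and 88 to 185 per vitrified TE library. EIF4G2, which drives cap-independent initiation, was 31.9 RPKM in fresh and 40.4 in vitrified TE, and its call turned to lower under median-ratio scaling (-0.76).

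EIF4EBP1 showed the greatest ratio of means of any gene in the set. Its product, 4E-BP1, binds eIF4E and blocks cap-dependent initiation until mTOR phosphorylates it. In fresh TE it was nearly absent, with 2 to 9 reads per library, or 0.0148, 0.0229, 0.0466, 0.0566 and 0.0205 RPKM (chromosome 27, 32951594 to 32973436, plus strand). In vitrified TE it had 1126 to 1748 reads per library, or 6.02 to 8.71 RPKM with a median of 7.79, and the vitrified embryos had 6.40 and 7.60. The 6 fresh embryos spread from 8 to 1237 reads, at 3.27, 0.461, 4.86, 0.0602, 1.08 and 2.49 RPKM. The groups of TE did not overlap, and fresh embryos 2 and 4 were nearest to fresh TE. The ratio of means was 230 between vitrified and fresh TE and rests on those few reads in fresh TE. The log2(RPKM + 1) change was 3.02 ± 0.30 (limma adjusted p = 3.5e-08), and 2.73 under median-ratio scaling. In whole embryos the change was 1.64 ± 0.41 (limma adjusted p = 0.0058), with both vitrified values above all fresh ones, and the call was lost without vitrified embryo 2 (1.53). The ratio of EIF4EBP1 to its target EIF4E was 0.013 to 0.069 in fresh TE, 0.018 to 0.94 in fresh embryos, 1.16 and 1.38 in vitrified embryos and 1.90 to 3.33 in vitrified TE.

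The other 3 inhibitors were also called higher on the deposited scale, with log2 changes of 0.04 to 0.16. EIF4ENIF1, the shuttling protein that carries eIF4E to the nucleus, had 1 to 3 reads per fresh TE library and 14 to 26 per vitrified TE library, and was called higher under all 4 scalings (0.07 ± 0.01, limma adjusted p = 1.5e-05). EIF4EBP2 was 0.0155 and 0.0430 RPKM in fresh and vitrified TE. The row of EIF4EBP3 spans 112.9 kb and, in RefSeq's annotation, the gene neighbours ANKHD1, which has no row in the table, so reads given to EIF4EBP3 may be of either. Its values were 0.215 to 0.319 RPKM in fresh TE and 0.369 to 0.486 in vitrified TE, and the call turned with the scaling (-0.13 under median-ratio scaling).

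EIF5A and EIF6 were among the largest changes in the set. EIF5A (chromosome 19, 27648382 to 27653257, plus strand) helps ribosomes through proline-rich stretches and belongs to the only protein family known to carry hypusine. EIF5A was 4.98, 3.72, 7.63, 5.98 and 3.34 RPKM in fresh TE. It was 44.4 to 64.9 RPKM in vitrified TE with a median of 58.7, and 62.7 and 82.01 in vitrified embryos. The fresh embryos were 32.5, 20.1, 39.0, 10.2, 13.8 and 30.4 RPKM, between the fresh TE and the vitrified groups without overlap. The mean was 10.8-fold higher in vitrified than in fresh TE (3.24 ± 0.26, limma adjusted p = 3e-09) and 2.97-fold higher in vitrified than in fresh embryos (1.66 ± 0.37, limma adjusted p = 0.0024), both under all 4 scalings. Without vitrified embryo 2 the call in embryos was lost, at 1.47. Its paralogue EIF5A2 was 0.0541 RPKM in fresh and 0.0657 in vitrified TE and did not pass. EIF6, which keeps the large ribosomal subunit from joining too early, was 5.997, 6.45, 6.92, 7.21 and 6.58 RPKM in fresh TE and 20.6 to 37.4 with a median of 30.1 in vitrified TE, 4.39-fold higher (1.96 ± 0.21, limma adjusted p = 1.1e-07). In embryos EIF6 was 32.8 ± 11.8 RPKM (SD, n = 6) when fresh and 45.0 ± 0.853 (SD, n = 2) after vitrification, and did not pass (limma adjusted p = 0.18).

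Several of these genes were low together in fresh embryo 4, which had the lowest value of its group for EIF3G (27.7 RPKM), EIF5A (10.2), EIF6 (16.5), EIF4A3 (4.603) and EIF4EBP1 (0.0602). The same library held the fewest reads of its group, 6.085 M. It was the lowest of its group for 23 of the 92 genes and the highest for 33, among them EEF1A1 (1015 RPKM), EEF1B2 (342) and VARS (10.2). Fresh embryo 6 was the lowest for 30 genes and fresh embryo 1 for 21.

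**Figure D4:**
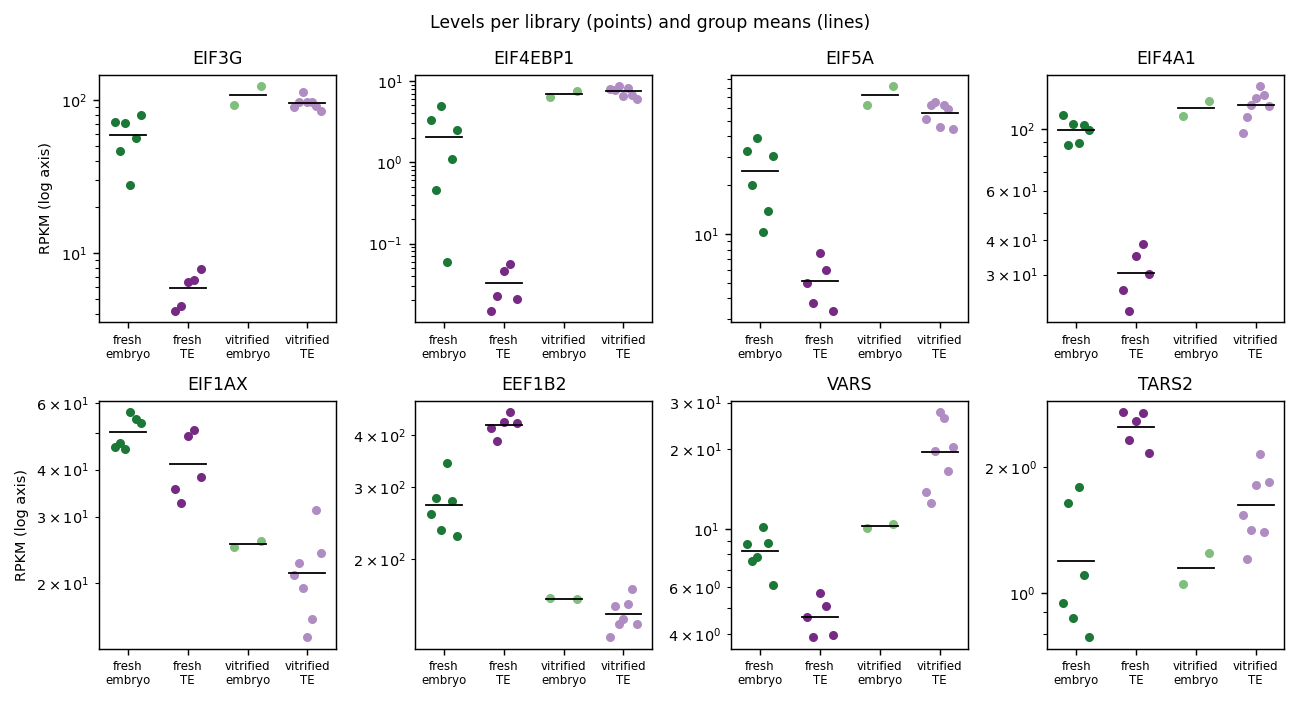
RPKM of 8 genes in each library (points, log axis) with the group means (lines), for fresh embryos (n = 6), fresh TE (n = 5), vitrified embryos (n = 2) and vitrified TE (n = 7). EIF3G, EIF4EBP1, EIF5A and EIF4A1 are lowest in fresh TE, EEF1B2 and TARS2 are highest there, EIF1AX is low in both vitrified groups, and VARS is highest in vitrified TE.

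Of the 6 tested elongation factor genes 3 were higher, 2 lower and 1 did not pass in vitrified TE on the deposited scale, and none was higher and 5 were lower under median-ratio scaling. The 6 include EEF1E1 by its symbol, though its product belongs to the multi-synthetase complex. EEF1E1 was among the 3 higher genes, and it alone was not lower under median-ratio scaling. EEF1B2, the subunit of eEF1B that exchanges nucleotide on eEF1A (chromosome 2, 94922839 to 94926123, plus strand), was 418, 388, 430, 456 and 428 RPKM in fresh TE. It was 129 to 169 RPKM in vitrified TE with a median of 143, 228 to 342 in fresh embryos with a median of 268, and 161 and 160 in vitrified embryos. The vitrified groups lay below the fresh embryos, and those below fresh TE, with no overlap. The mean in vitrified TE was 0.35 times that in fresh TE (-1.52 ± 0.10, limma adjusted p = 2.2e-10), and in vitrified embryos 0.59 times that in fresh embryos (-0.74 ± 0.14, limma adjusted p = 0.00082), both under all 4 scalings. EEF1D, another exchange subunit, fell from 47.8 to 69.9 RPKM in fresh TE to 34.0 to 44.6 in vitrified TE (-0.53 ± 0.13, limma adjusted p = 0.0015). EEF1G, the structural subunit of the same complex, was 50.6 to 62.5 RPKM in fresh TE and 61.0 to 98.3 in vitrified TE, higher on the deposited scale (0.35 ± 0.13, limma adjusted p = 0.023; lost without fresh TE 5 or vitrified TE 5) and -0.75 under median-ratio scaling. The ratio of EEF1B2 to EEF1G was 6.20 to 8.46 in fresh TE, 3.79 to 4.28 in fresh embryos, 1.61 and 2.60 in vitrified embryos and 1.58 to 2.54 in vitrified TE.

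EEF1A1, the tRNA carrier and an abundant transcript with many processed pseudogenes that can share its reads, was 424 to 482 RPKM in fresh TE, 491 to 714 in vitrified TE, 691 to 1015 in fresh embryos and 655 and 785 in vitrified embryos. Its call in TE turned with the scaling, from 0.32 to -0.80. EEF2, the translocase, was 17.8 to 39.0 RPKM in fresh TE and 31.8 to 38.0 in vitrified TE, overlapping (0.23 ± 0.17, limma adjusted p = 0.23). Fresh embryos had less EEF2 than fresh TE, at 15.5 to 28.5 RPKM (-0.45 ± 0.18, limma adjusted p = 0.034), a call that was lost in several alternatives and without any of fresh TE 1, 2, 3 or 4 or fresh embryo 3, 5 or 6, with adjusted p up to 0.18. EEF1E1, which despite its symbol belongs to the multi-synthetase complex, was 1.38 to 1.86 RPKM in fresh TE and 4.17 to 6.66 in fresh embryos, higher in the latter under all 4 scalings (1.28 ± 0.12, limma adjusted p = 4e-08). Among the enzymes that modify elongation factors, EEF1AKMT1, a lysine methyltransferase of eEF1A, was 0.577 to 0.979 RPKM in fresh embryos and 1.40 and 2.23 in vitrified embryos, higher under all 4 scalings (0.62 ± 0.11, limma adjusted p = 0.00047). EEF2K, the kinase that halts eEF2, was at most 0.0592 RPKM in any library and did not pass in either vitrification contrast.

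Of the 18 cytosolic synthetases 14 rose in vitrified TE on the deposited scale and none was called lower, beside 69% of all genes higher, and 6 were higher under all 4 scalings (AARS, CARS, EPRS, HARS, SARS and VARS), beside 25.4% of all genes. Under median-ratio scaling 8 were higher and 5 lower. VARS, the valyl-tRNA synthetase that associates with eEF1 (chromosome 23, 27365215 to 27374078, minus strand), was 4.62, 3.89, 5.72, 5.09 and 3.98 RPKM in fresh TE and 12.5 to 27.6 with a median of 19.76 in vitrified TE. It was 6.12 to 10.2 RPKM in fresh embryos with a median of 8.28, and 10.1 and 10.47 in vitrified embryos. Vitrified TE alone was high, 4.20-fold above fresh TE (1.82 ± 0.17, limma adjusted p = 1.9e-08) and 1.91-fold above vitrified embryos (limma adjusted p = 0.022, under all 4 scalings, but lost when either vitrified embryo was left out). In embryos the change was 0.30 ± 0.24 (limma adjusted p = 0.35), and the difference between the effects in embryo and TE was -1.52 ± 0.29 (limma adjusted p = 0.00074). The ratio of VARS to TARS was 1.14 to 1.82 in fresh TE, 1.26 to 2.36 in fresh embryos, 1.87 and 1.99 in vitrified embryos and 3.06 to 7.24 in vitrified TE.

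AARS, for alanine, was 1.05, 0.775, 0.904, 0.995 and 0.738 RPKM in fresh TE and 2.83 to 4.35 with a median of 3.78 in vitrified TE, 4.10-fold higher (1.29 ± 0.11, limma adjusted p = 8.1e-09). SARS, for serine, was 0.957, 0.976, 1.40, 1.60 and 1.57 RPKM in fresh TE and 3.25 to 5.01 with a median of 4.07 in vitrified TE (1.12 ± 0.11, limma adjusted p = 2.1e-08). EPRS, the joined enzyme for glutamate and proline and a core of the multi-synthetase complex, was 0.491, 0.364, 0.615, 0.641 and 0.522 RPKM in fresh TE and 1.59 to 2.10 with a median of 1.90 in vitrified TE (0.91 ± 0.07, limma adjusted p = 1e-09). These 3 did not overlap between the TE groups. GARS, MARS, RARS and TARS did not pass on the deposited scale, with ratios of means from 1.08 to 1.25, and their groups overlapped. WARS, for tryptophan, an interferon-inducible gene in many tissues, was 1.54 to 2.99 RPKM in fresh TE and 3.87 to 4.70 in vitrified TE (0.74 ± 0.10, limma adjusted p = 3.6e-06), and -0.10 under median-ratio scaling. In whole embryos GARS, for glycine, was lower after vitrification, at 1.40 and 1.505 against 1.59 to 2.86 RPKM (-0.34 ± 0.12, limma adjusted p = 0.039), under all 4 scalings, and the call was lost without either vitrified embryo or without fresh embryo 4 or 5.

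The mitochondrial synthetases moved in both directions in TE. Of the 14 tested, 10 were higher and 2 lower on the deposited scale, and 4 higher and 5 lower under median-ratio scaling. MARS2, for methionine, a gene with few reads (4 to 16 per fresh TE library), was 1.16, 0.298, 0.741, 0.430 and 0.936 RPKM in fresh TE and 3.28 to 6.89 with a median of 4.42 in vitrified TE, 6.49-fold higher under all 4 scalings (1.71 ± 0.15, limma adjusted p = 6.7e-09). VARS2, for valine, was 0.213 to 0.322 RPKM in fresh TE and 0.721 to 1.42 in vitrified TE (0.64 ± 0.08, limma adjusted p = 9.1e-07). TARS2, for threonine (chromosome 3, 20234451 to 20246078, minus strand), was 2.70, 2.32, 2.57, 2.69 and 2.16 RPKM in fresh TE and 1.20 to 2.14 with a median of 1.54 in vitrified TE, lower with no overlap (-0.42 ± 0.11, limma adjusted p = 0.0025). Fresh embryos were lower still, at 0.785 to 1.79 RPKM (-0.69 ± 0.12 against fresh TE, limma adjusted p = 4.2e-05). IARS2, for isoleucine, was 1.51, 1.16, 1.58, 1.55 and 1.55 RPKM in fresh TE and 0.871 to 1.26 in vitrified TE (-0.29 ± 0.07, limma adjusted p = 0.0014), with fresh TE 2 inside the vitrified range. It was 1.37 to 1.93 in fresh against 1.34 and 0.918 in vitrified embryos (-0.30 ± 0.10, limma adjusted p = 0.029; lost without fresh embryo 5, at -0.27, or vitrified embryo 2, at -0.16). The row of YARS2 overlaps DNM1L on the other strand, so their reads may not be told apart.

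Whole vitrified embryos were next compared with whole fresh embryos. Of the 92 genes 31 were higher and 4 lower (limma, adjusted p below 0.05), beside 26.9% of all genes higher and 3.94% lower (30.9% in either direction), and 9 were higher and 4 lower under all 4 scalings, beside 7.87% and 3.11%. Those 9 were EIF2AK1, EIF2B1, EIF3A, EIF3L, EIF4E2, EIF4EBP1, EIF4ENIF1, EIF5A and EEF1AKMT1, and the 4 were EIF1AX, EEF1B2, GARS and IARS2. With only 2 vitrified embryos the counts rest on each of them: without vitrified embryo 2, which was the higher of the pair for 71 of the 92 genes, 6 were higher and 2 lower, and without fresh embryo 5 again 2 were lower. EIF3A was 3.61 to 5.39 RPKM in fresh and 9.41 and 10.1 in vitrified embryos, 2.18-fold higher (0.99 ± 0.16, limma adjusted p = 0.00022). EIF3L was 5.69 to 7.79 RPKM in fresh and 11.4 and 14.8 in vitrified embryos, 2.04-fold higher (0.92 ± 0.16, limma adjusted p = 0.00049).

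Fresh whole embryos and fresh TE differed in 61 genes that were higher and 5 that were lower in the embryo (limma, adjusted p below 0.05), beside 60% and 5.97% of all genes (66% in either direction). Under all 4 scalings 25 were higher and 5 lower, beside 23.3% and 5.96%. Both this comparison and that of vitrified with fresh TE use the same 5 fresh TE libraries, so their changes are not independent. EIF1 was 4.43-fold (2.12 ± 0.12, limma adjusted p = 6.7e-11), EIF3G 9.87-fold (3.06 ± 0.21, limma adjusted p = 1.3e-09) and EIF6 4.95-fold higher (2.06 ± 0.22, limma adjusted p = 1.7e-07) in the embryo. The 5 lower ones were EIF2B5, EEF1B2, EEF1D, EEF2 and TARS2, a count that was 3 without fresh TE 3 or without fresh TE 4. EIF2B5 was 7.56 RPKM in fresh embryos and 10.6 in fresh TE, with overlapping values (-0.44 ± 0.16, limma adjusted p = 0.018).

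Vitrified embryos were then compared with vitrified TE, a contrast that has only 2 embryos on one side, so few calls do not show likeness. Of the 92 genes 23 were higher and 2 lower in the embryo (limma, adjusted p below 0.05), beside 15.3% and 3.59% of all genes (18.9% in either direction), and under all 4 scalings 3 were higher (EIF2B1, EIF3F and EIF4E) and VARS was lower, beside 2.43% and 1.82%. Without vitrified embryo 2 limma called none higher and none lower, with 16 higher and 4 lower at an unadjusted p below 0.05, and without vitrified embryo 1 a single gene was lower. EIF3F was 9.84 and 11.01 RPKM in the embryos and 2.86 to 6.92 in TE (1.002 ± 0.21, limma adjusted p = 0.0052), and EIF4E was 5.53 in both embryos and 2.44 to 3.73 in TE (0.72 ± 0.16, limma adjusted p = 0.0076). Both calls were lost without vitrified embryo 2.

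The effect of vitrification in embryos minus that in TE was tested directly. It was below 0 for 34 of the 92 genes and above 0 for 3 (limma, adjusted p below 0.05), beside 28.4% and 3.98% of all genes (32.3% in either direction), and under all 4 scalings for 11 and 3, beside 10.7% and 3.74%. Without vitrified embryo 1 the 34 became 19 and the 3 became 5, and the 3 became 1 without any of fresh embryo 2, fresh TE 1 or 4, vitrified embryo 2, or vitrified TE 4 or 7. The widest difference was that of EIF3G, at -2.89 ± 0.35 (limma adjusted p = 1.2e-05), whose change was 3.82 in TE and 0.93 in embryos; the latter was called on the deposited scale (limma adjusted p = 0.02), not under median-ratio scaling, and not without vitrified embryo 2. EIF4A1 changed by 1.98 in TE and 0.25 in embryos (difference -1.73 ± 0.22, limma adjusted p = 1.8e-05), EIF4H by 2.23 and 0.57 (-1.66 ± 0.25, limma adjusted p = 0.0001), EIF1 by 1.35 and -0.24 (-1.59 ± 0.19, limma adjusted p = 1e-05) and EIF3A by 2.30 and 0.99 (-1.31 ± 0.20, limma adjusted p = 7.6e-05). EEF1B2 fell by more in TE than in embryos, with a difference of 0.79 ± 0.17 (limma adjusted p = 0.0021). Of the 18 cytosolic synthetases 12 had a difference called below 0 and 0 above on the deposited scale, where 28.4% and 3.98% of all genes did. Under median-ratio scaling 2 were called below 0, 1 above and 15 did not pass, beside 13.2% of all genes below and 14% above.

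Genes of neighbouring steps were read from fixed lists, in vitrified against fresh TE on the deposited scale unless said otherwise, beside 69% of all genes higher and 6.66% lower there. Both hypusine enzymes, which modify EIF5A, rose in vitrified TE under all 4 scalings: DHPS from 0.372 to 3.32 RPKM (1.65 ± 0.10, limma adjusted p = 9.3e-11) and DOHH from 0.142 to 1.001 (0.80 ± 0.11, limma adjusted p = 2e-06). Of 10 genes for termination, recycling and re-initiation 7 rose and 1 fell, with GSPT1, the release factor eRF3, going from 1.84 to 10.8 RPKM (2.05 ± 0.09, limma adjusted p = 2.4e-12) and MCTS1, a re-initiation factor, from 4.603 to 1.87 (-0.97 ± 0.12, limma adjusted p = 9.6e-07). Of 6 other synthetase and complex subunits 4 rose and 1 fell. The 2 chains of the phenylalanyl enzyme parted: FARSA rose from 0.834 to 4.73 RPKM (1.65 ± 0.12, limma adjusted p = 6.3e-10) and FARSB fell from 2.47 to 0.973 (-0.82 ± 0.08, limma adjusted p = 2.1e-08), both also past the threshold in the same direction under median-ratio scaling.

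Of 15 mitochondrial translation factors 13 rose and none fell on the deposited scale, but 3 were higher and 5 lower under median-ratio scaling, beside 35.2% and 27.4% of all genes. MRRF, the mitochondrial recycling factor, went from 0.318 to 1.17 RPKM (0.72 ± 0.05, limma adjusted p = 1.1e-09). Of 6 poly(A)-binding proteins and partners 4 rose and 1 fell, and none was higher under median-ratio scaling, where PABPC1, the main cytoplasmic form, stood at -0.05. Of 13 genes of the mTOR pathway and translational repressors 12 rose and 1 fell, and 7 and 2 did so under median-ratio scaling. LARP1, which represses mRNAs of ribosomal proteins, went from 0.0638 to 1.29 RPKM (1.10 ± 0.08, limma adjusted p = 1.2e-09), and MYC, a transcription factor that drives translation genes, from 0.499 to 8.93 (2.71 ± 0.14, limma adjusted p = 1.6e-11). In the integrated stress response, the pathway that the eIF2 kinases start, 11 of 15 genes rose and 2 fell, and 6 and 4 did so under median-ratio scaling. PPP1R15A, the phosphatase subunit that reverses eIF2 phosphorylation, went from 0.261 to 11.8 RPKM (3.31 ± 0.18, limma adjusted p = 2e-11) and DDIT3, a late target, from 4.15 to 28.6 (2.51 ± 0.17, limma adjusted p = 2.6e-10). ATF4, the central factor of that response, was 122 ± 20.7 RPKM (SD, n = 5) in fresh and 93.97 ± 20.3 (SD, n = 7) in vitrified TE and did not pass (limma adjusted p = 0.095), but was lower under median-ratio scaling (-1.49).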

How the data were processed

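Total RNA of 20 bovine day 14 samples was sequenced, per the labels. The submitters' processing notes name FastQC, STAR 2.5.3a, Partek and the UMD3.1 build, with no order or settings. The deposited table gives RPKM with an offset of 0.01, made by the authors per kb of genomic span (worked out from the values), so levels are not compared between genes. Between 94.4% and 95.8% of the values under 1000 reads in a library came back as whole reads within 0.1, and those reads served for the filter and for an alternative. The test was limma 3.58.1 (R 4.3.3; lmFit, eBayes with trend and robust) on log2(RPKM - 0.01 + 1), group means of all 4 groups, no covariate, Benjamini-Hochberg over 10599 genes, threshold 0.05. Fold changes on this scale understate changes of low genes; ratios of mean RPKM are given beside them. The script was tested on simulated data. Scalings: deposited, by listed-gene reads, median ratio, quantile. Fresh TE libraries 1 and 2, and 3 and 4, were closer to each other than any other pairs (chi-square per degree of freedom 1.88 and 1.48, against 11.9 or more for the other fresh TE pairs). They differed beyond sampling noise and were kept apart, but may be technical duplicates, in which case SDs and p-values with n = 5 are too small; an alternative averages them.

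The set, its roles, the companion and marker lists and the tests were chosen with earlier results of these data known. Genes given with every value are those with the largest changes past the threshold in each role (up to 3 in each direction in TE, 4 over all in other contrasts) plus a fixed core of regulators. No sequences were used here.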

Additional observations from a re-analysis of the deposited data

Results flagged for a closer look

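In 10 groups of 4 to 7 libraries 1 library lay apart from the rest of its group by Dixon's gap test, of 144 groups tested, and chance gives about 1 in 20. In fresh TE these were EEF1G in library 5 (50.6 RPKM, low), EIF1B in library 1 (11.6, high), EIF2AK4 in library 5 (0.0847, high), EIF2S1 in library 5 (1.03, low) and IARS2 in library 2 (1.16, low). In fresh embryos they were EEF2KMT in embryo 4 (0.257, low), EIF2AK2 in embryo 2 (0.0274, low), EIF2AK3 in embryo 4 (0.222, high) and SARS2 in embryo 2 (0.742, high). In vitrified TE it was EIF1 in library 6 (116, high).

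The effect of vitrification differed between whole embryos and TE (embryo minus TE, limma) for 7 of the genes named for that contrast. The difference was -2.89 for EIF3G, -1.73 for EIF4A1, -1.66 for EIF4H and -1.59 for EIF1, and 0.79 for EEF1B2, 0.70 for EIF3F and 0.12 for EIF2B3. The calls of EIF3F and EIF2B3 were lost when either vitrified embryo, or any of several other libraries, was left out.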

How the results depend on the processing

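Counts in contrasts that hold fresh TE moved most with the scaling; higher calls of vitrified embryos against fresh embryos or vitrified TE moved more with 1 library left out. Of the 92 genes, 32 were higher and 33 lower in vitrified than fresh TE under median-ratio scaling, 25 and 37 under quantile normalization, and 21 lower under listed-gene scaling; of all genes 35.2% and 27.4%, 26.2% and 38.7%, and 15.7% were so called. For fresh embryo against fresh TE these were 29 and 33, 25 and 36, and 19 lower (of all genes 30% and 25%, 23.6% and 34.7%, and 15.8%); averaging the near-identical libraries gave 3 lower (4.83%). For vitrified against fresh embryos, 11 were higher under both median-ratio and quantile scaling and 9 lower under median-ratio scaling (of all genes 10.6%, 8.68% and 6.99%); fitting only the groups compared gave 20 higher and 2 lower (18.1% and 2.23%), and sample weights 19 and 2 (15.2% and 1.43%). For vitrified embryo against vitrified TE, 10 were higher under listed-gene scaling (9.27% of all genes), 3 under median-ratio and quantile scaling (3.25% and 2.59%), 15 with a pseudocount of 0.1 (10.1%), 8 with only the groups compared (6.65%) and 1 with sample weights (1.46%); 1 was lower with that pseudocount, with no filter, quantile normalization, averaged libraries or voom on recovered reads, and limma called 0 with only the groups compared or sample weights (2 and 2 at an unadjusted p below 0.05). For the difference of effects, 9, 22 and 24 were called above 0 under listed-gene, median-ratio and quantile scaling (9.41%, 14% and 19.5% of all genes). In the same order 18, 12 and 11 were called below 0 (15.7%, 13.2% and 11.3%). With sample weights or averaged libraries 1 was called above 0 (2.78% and 3.15%).

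Deviations from the group means correlated at -0.185 to 0.377 between libraries of different groups with the same replicate number. Libraries with different numbers were not compared in this way, so these values cannot tell whether the numbers pair the samples. With the number as a replicate block, 2 were lower in vitrified embryos than fresh ones (2.4% of all genes). In vitrified embryos against vitrified TE limma called 8 higher and 0 lower (6.38% and 1.08%), with 2 lower at an unadjusted p below 0.05. A difference of effects was called above 0 for 1 (2.86%).

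Leaving out each library in turn gave 66 to 69 higher and 6 to 7 lower for TE, 6 to 34 and 2 to 4 for vitrified against fresh embryos, 59 to 61 and 3 to 7 for fresh embryo against fresh TE, 0 to 26 and 0 to 3 for vitrified embryo against vitrified TE, and 1 to 5 above and 19 to 35 below 0 for the difference. A group left with 1 library was assumed to vary like the others.

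Some genes changed sign. In vitrified against fresh TE, under median-ratio and quantile scaling in that order, log2 changes were -0.80 and -0.12 for EEF1A1, -0.75 and -0.27 for EEF1G, -0.86 and -0.66 for EEF2, -0.0047 and -0.098 for EEF1AKMT1, -0.032 and -0.073 for EEF2K, -0.047 and -0.13 for EEF2KMT, -0.010 and -0.057 for EIF2AK2, -0.0060 and -0.059 for EIF2AK4, -0.23 and -0.28 for EIF2B2, -0.30 and -0.25 for EIF4A2, -0.13 and -0.21 for EIF4EBP3 and -0.095 and -0.14 for WARS. Under listed-gene scaling they were -0.31 for EEF1A1 and -0.27 for EEF1G. Under quantile normalization alone they were -0.031 for EEF1AKMT3, -0.046 for EEF1E1, -0.039 for EIF2AK3 and -0.11 for EIF5A2. In fresh embryo against fresh TE they were -0.12 for EEF1A1 under median-ratio scaling, -0.23 and -0.33 for EIF4A2 and -0.12 and -0.17 for WARS under both, and -0.058 for EIF2AK2, -0.029 for EIF2AK3, -0.015 for EIF2AK4 and -0.036 for EIF5A2 under quantile normalization. The cause was not tested. Genes with under 20 reads per library, such as EIF4EBP1 in fresh TE, carry wide counting error.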
